A study of Homo sapiens with 18 samples.

Results

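A set of 10 intestinal differentiation genes was examined in HCT116 cells, a human colorectal carcinoma line. They were taken by symbol from the whole transcriptome RNAseq table, and all 10 were found among its 38055 genes. Of these, 5 are transcription factors (CDX1, CDX2, HNF4A, KLF4 and KLF5), and 5 are products of enterocytes or goblet cells (KRT20, VIL1, MUC2, MUC13 and TFF3). WT cells of epithelial type, grown in McCoy's 5A medium with fetal bovine serum, were harvested on day 3 at 50% confluency and on day 5 at 250% confluency, with 3 biological replicate libraries per day. Every group was the same untreated line, so the comparison was of sparse against crowded cultures. Density and time in culture changed together between the days and cannot be told apart. Whole cell RNA was sequenced after depletion of ribosomal RNA. The labels call the libraries biological replicates without saying how the cultures were separated, so p-values measure the spread between these libraries.

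The intestinal epithelium is renewed from stem cells in the crypts, and their progeny become absorptive enterocytes or secretory cells such as the mucus-producing goblet cells. The homeobox factors CDX1 and CDX2 set intestinal identity, and the nuclear receptor HNF4A switches on enterocyte genes. Of the zinc finger factors, KLF4 is known from post-mitotic cells and goblet cells, whereas KLF5 is known from dividing crypt cells. Villin (VIL1) bundles actin in the microvilli, and keratin 20 (KRT20) is a filament protein of mature surface cells. MUC2 forms the secreted mucus gel, TFF3 is a small peptide secreted with it, and MUC13 is a mucin anchored in the apical membrane. HCT116 is regarded as a poorly differentiated line.

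The 6 libraries held 27470978 to 56689369 reads on genes, and both extremes were day 3 libraries. A normalized value is the number of reads of a gene divided by a size factor of its library. A gene was tested if 3 or more of the 6 libraries had a normalized value of 10 or higher, which left 20129 genes, by limma on log2(value + 1). The epithelial label was checked first. All 5 epithelial markers (EPCAM, CDH1, KRT8, KRT18 and KRT19) were above 10 in every library, and their summed normalized value was 36900 to 54939 on day 3 and 100049 to 101107 on day 5. Of 7 fibroblast markers 5 were analysed, with a sum of 526 to 605 on day 3 and 1124 to 1200 on day 5, nearly all of it COL1A1, and DCN was at a mean of 1.44 on day 3 and at 0 on day 5. Of 3 endothelial markers 2 were analysed, with a sum of 8.51 to 21.0 on day 3 and 20.7 to 39.7 on day 5. Nearly all of it was VWF, and CDH5 was at means under 1. The 5 blood markers summed to 19.8 to 25.5 and then 16.1 to 20.7. PTPRC was at means under 1, so most of this sum came from other blood markers. The labels name HCT116 cells alone, and any part of these cell types in the results was not tested. In bulk RNA, fewer cells of a type and less RNA per cell cannot be told apart.

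Expression of 4 of the 5 transcription factors was higher on day 5. The differentiation products were at low levels on both days, although MUC13 among them was also called higher. KLF4 (chr9:107484852-107490482 on GRCh38, minus strand) had the largest rise of the 10 genes. Its normalized value was 289, 338 and 363 in the 3 day 3 libraries and 1338, 1542 and 1535 in the 3 day 5 libraries. Every day 5 library was thus far above every day 3 library. The means were 330 ± 37.7 (SD, n = 3) and 1472 ± 116 (SD, n = 3), a 4.46-fold rise with a 95% interval of 3.66 to 5.44 (2.16 ± 0.12 on the log2 scale, estimate ± standard error, adjusted p = 0.000167 from limma). Among all 20129 genes tested, 0.869% had a larger rise.

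KLF5 (chr13:73054976-73077541, plus strand), the most abundant of the 10 per length, was at 1281, 1440 and 1402 on day 3 and at 3062, 3033 and 3414 on day 5. The libraries of the days were well apart, and the spread within a day was small. KLF5 went from 1374 ± 82.9 to 3170 ± 212 (SD, n = 3 each), a 2.30-fold rise (95% interval 1.98 to 2.69, adjusted p = 0.000258 from limma). Thus the factor of differentiated cells and that of dividing crypt cells both rose, KLF4 by more. Within a library, the KLF4 level per kb of exon was 0.227, 0.236 and 0.260 of the KLF5 level on day 3 and 0.439, 0.511 and 0.452 of it on day 5. A ratio within a library is free of the size factors, and its values did not overlap between the days (two-sided exact permutation test, p = 0.1, the smallest that 3 libraries against 3 allow, and 0.1 after adjustment over 2 ratios).

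HNF4A (chr20:44355699-44432845, plus strand) was at 173, 173 and 207 on day 3 and at 387, 449 and 388 on day 5. The days did not overlap, and the day 5 mean of 408 ± 35.4 stood against 184 ± 19.6 on day 3 (SD, n = 3 each). The rise was 2.21-fold (95% interval 1.83 to 2.68, adjusted p = 0.000497 from limma). HNF4A is transcribed from alternative promoters, and the values per gene do not separate their products.

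CDX2 (chr13:27960918-27969315, minus strand) changed least of the factors that passed. It was at 208, 222 and 247 on day 3 and at 323, 292 and 304 on day 5, and the days did not overlap. The means were 226 ± 19.5 and 306 ± 15.9 (SD, n = 3 each), a 1.36-fold rise (95% interval 1.16 to 1.60, adjusted p = 0.00889 from limma). CDX2 exceeded HNF4A per kb of exon by 3.48, 3.71 and 3.45 times on day 3 and by 2.41, 1.88 and 2.27 times on day 5 (two-sided exact permutation test, p = 0.1, the smallest possible here). These ratios rest on the merged exons of all transcripts, 3517 bases for CDX2 and 10167 bases for HNF4A. Without scaling to length, the day 5 mean of HNF4A, 408, was above that of CDX2, 306. Without the filter on low values, the adjusted p of CDX2 was 0.0525 (limma).

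CDX1 (chr5:150166778-150184558, plus strand) was near the detection limit and was not tested. It had 1, 6 and 0 reads in the day 3 libraries and 4, 0 and 2 reads in the day 5 libraries. Summed over a day this was 7 reads of 122895191 and 6 reads of 96820776, and the ratio of day 5 to day 3, scaled to the total reads, was 1.09 with an exact 95% interval of 0.302 to 3.78. A difference in CDX1 was thus not detectable at this depth. Such intervals cover counting error alone.

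**Figure D1:**
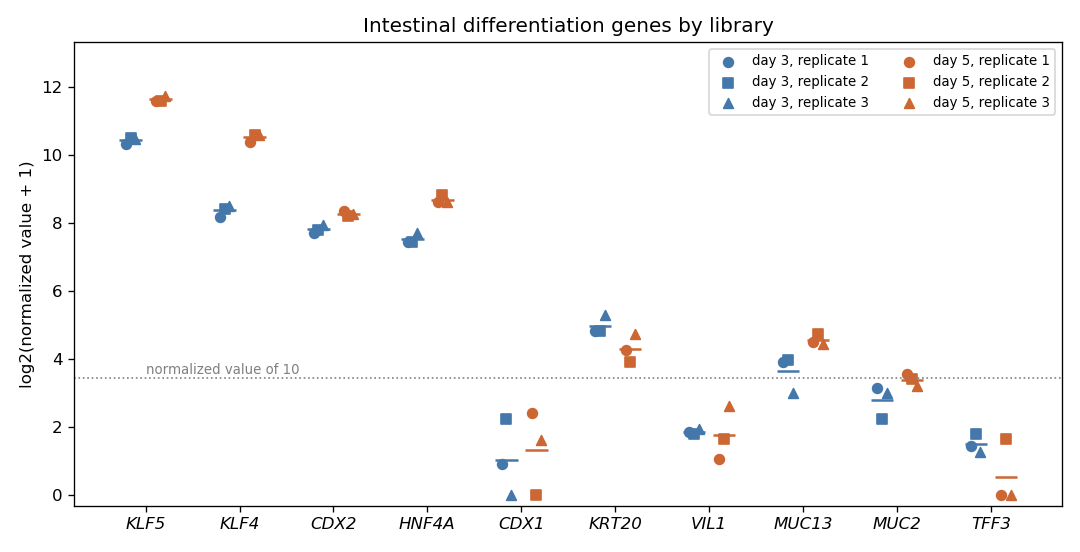
Log2(normalized value + 1) of each of the 10 genes (x axis) in each of the 6 libraries, day 3 in blue and day 5 in orange, with a bar at the mean of each day and a symbol for each replicate. KLF5, KLF4, CDX2 and HNF4A lie far above the dotted line at a normalized value of 10, with the days apart, whereas VIL1, CDX1 and TFF3 lie below it on both days.

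KRT20 (chr17:40875889-40885242, minus strand) was the enterocyte marker among the 10 genes with enough reads to be tested, and its values lay the other way from those of the factors. Its normalized value was 27.2, 27.2 and 38.3 on day 3 and 18.4, 13.9 and 25.9 on day 5, from 31, 44 and 27 reads and from 17, 13 and 25 reads. The days did not overlap, although day 5 replicate 3 came close to the lowest day 3 library. The mean was 30.9 ± 6.39 on day 3 and 19.4 ± 6.04 on day 5 (SD, n = 3 each), a ratio of 0.630 on the fitted scale (95% interval 0.413 to 0.959) that missed the threshold (adjusted p = 0.0613 from limma). KRT20 was called lower when day 5 replicate 3 was left out (adjusted p = 0.0214 from limma). It was not called with any other single library left out (adjusted p from 0.0891 to 0.157 from limma). Nor was it called in edgeR or DESeq2 on whole reads (adjusted p = 0.0832 and 0.219).

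VIL1 (chr2:218419121-218453295, plus strand), which marks the brush border, was at the floor. It had 3, 4 and 2 reads in the day 3 libraries and 1, 2 and 5 in the day 5 libraries, which overlapped. The scaled ratio of day 5 to day 3 was 1.13 (exact 95% interval 0.379 to 3.29). On the opposite strand VIL1 overlaps USP37, whose normalized value was 2861 to 3591 in these libraries. The mapping accepted reads of the gene's own strand only, and whether any of the few VIL1 reads came from USP37 was not tested.

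MUC13 (chr3:124905442-124953819, minus strand), the membrane mucin, was low but rose. It was at 14.0, 14.8 and 7.09 on day 3 (16, 24 and 5 reads) and at 21.7, 25.7 and 20.7 on day 5. The lowest value was that of day 3 replicate 3, the shallowest library, with 5 reads. The fitted rise was 1.90-fold (95% interval 1.19 to 3.02, log2 fold change 0.92, adjusted p = 0.0292 from limma). This call was the least firm, since it was lost without any 1 of the 3 day 5 libraries (adjusted p = 0.0652, 0.0843 and 0.0581 from limma without replicates 1, 2 and 3) and in edgeR on whole reads (adjusted p = 0.0534). Without day 3 replicate 3, the log2 fold change was 0.61 (adjusted p = 0.0094 from limma).

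MUC2 (chr11:1074875-1110511, plus strand), the gel-forming mucin of goblet cells, had 9, 6 and 5 reads on day 3 and 10, 9 and 8 reads on day 5, below the filter. Its normalized values of 7.90, 3.71 and 7.09 against 10.8, 9.65 and 8.28 did not overlap, but the scaled ratio, 1.71, had an exact 95% interval of 0.926 to 3.22. TFF3 (chr21:42311667-42315409, minus strand) was lower still, with 2, 4 and 1 reads on day 3 and 0, 2 and 0 on day 5. For TFF3 the ratio was 0.363 (exact 95% interval 0.0368 to 1.90). Neither goblet gene could be shown to differ at this depth.

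In all, 6 of the 10 genes passed the filter on low values and 4 did not (CDX1, VIL1, MUC2 and TFF3). Of the 6 tested, 5 were called higher on day 5, where 29.3% of all genes tested were called higher. At least 2-fold rises were called for KLF4, KLF5 and HNF4A, against 10.2% of all genes. None was called lower by limma, where 27.6% of all genes were. At an unadjusted p under 0.05 from limma, 1 of the 6, KRT20, was lower. At an adjusted p under 0.05, edgeR and DESeq2 on whole reads called 0 lower and 4 higher each. These counts describe the genes that passed the filter, and MUC13 would have passed it through its day 5 values alone.

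**Figure D2:**
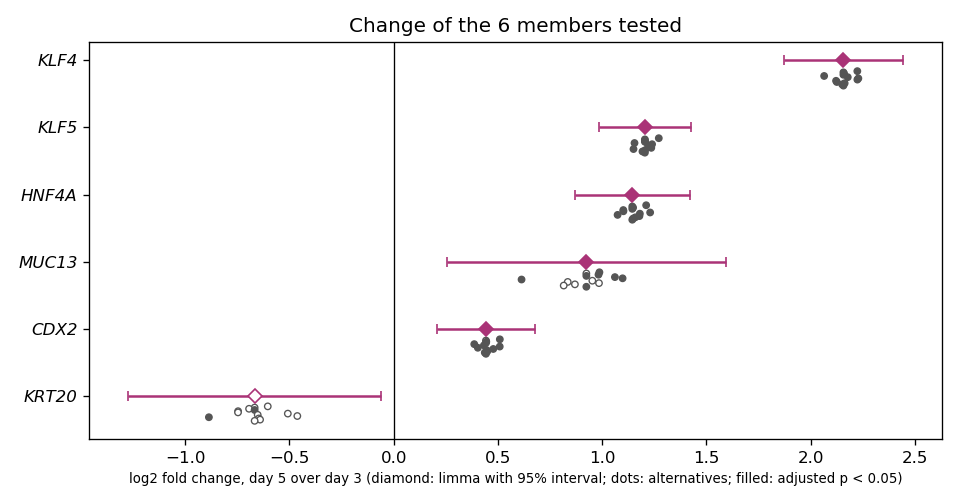
Log2 fold change of day 5 over day 3 (x axis) for the 6 genes tested. Diamonds show the limma estimate with its 95% interval, small dots the alternative settings, and filled symbols an adjusted p under 0.05. KLF4, KLF5 and HNF4A stay between 1.07 and 2.23 under every alternative, and KRT20 alone lies below 0.

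The promoters of the 5 genes called higher are shown because they differ in the sites they hold for the kinds of factor among the 10. Each sequence is the 250 bases before the RefSeq start site on GRCh38.p14, on the strand of the gene. RefSeq gave promoters for 7 of the 10 genes, and for HNF4A and KLF5 the downstream of 2 starts is shown. The search covered 5 motifs on both strands, and matches of a GC box and a KLF-type box did not overlap in these windows. Of 35116 promoters of the same length, 42.6% held a GC box (GGGCGG), 16.7% a KLF-type box (CCNCACCC), 8.93% a CDX-type site (TTTATNG), 0.940% an HNF4-type site (CAAAGTNCA) and 10.7% a TATA box (TATAAA). Capitals mark every match.
KLF4: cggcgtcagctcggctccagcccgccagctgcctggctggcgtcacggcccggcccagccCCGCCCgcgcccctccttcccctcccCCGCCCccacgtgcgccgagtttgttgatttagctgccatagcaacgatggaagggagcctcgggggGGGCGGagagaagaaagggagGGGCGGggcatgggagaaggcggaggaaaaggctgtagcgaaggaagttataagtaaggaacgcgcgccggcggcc
KLF5: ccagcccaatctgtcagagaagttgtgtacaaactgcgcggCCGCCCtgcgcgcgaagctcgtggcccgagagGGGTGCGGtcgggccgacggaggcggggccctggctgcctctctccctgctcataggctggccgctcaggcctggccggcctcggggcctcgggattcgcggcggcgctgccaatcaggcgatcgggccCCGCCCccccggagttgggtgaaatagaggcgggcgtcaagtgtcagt
HNF4A: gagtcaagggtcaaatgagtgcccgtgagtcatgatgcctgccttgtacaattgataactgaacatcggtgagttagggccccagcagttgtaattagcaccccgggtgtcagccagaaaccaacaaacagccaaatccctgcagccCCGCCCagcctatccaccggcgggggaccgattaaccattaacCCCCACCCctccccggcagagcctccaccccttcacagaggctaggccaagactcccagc
CDX2: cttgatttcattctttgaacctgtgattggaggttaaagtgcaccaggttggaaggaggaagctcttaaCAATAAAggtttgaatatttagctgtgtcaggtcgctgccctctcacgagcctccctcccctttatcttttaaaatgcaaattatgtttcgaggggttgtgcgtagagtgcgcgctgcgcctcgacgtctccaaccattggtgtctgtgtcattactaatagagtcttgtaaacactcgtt
MUC13: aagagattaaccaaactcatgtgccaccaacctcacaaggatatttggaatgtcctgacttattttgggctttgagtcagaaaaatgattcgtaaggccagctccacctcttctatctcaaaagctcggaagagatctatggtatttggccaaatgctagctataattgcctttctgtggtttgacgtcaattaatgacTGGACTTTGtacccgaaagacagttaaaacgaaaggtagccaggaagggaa

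The KLF4 promoter (chr9:107489770-107490019, minus strand) held 4 GC boxes and was 69.2% G and C, against a median of 58% over all promoters. That of KLF5 (chr13:73058755-73059004, plus strand) held 2 GC boxes and 1 KLF-type box, and the HNF4A promoter (chr20:44400989-44401238, plus strand) held 1 of each. The CDX2 promoter (chr13:27969316-27969565, minus strand) held 1 CDX-type site. The MUC13 promoter (chr3:124934752-124935001, minus strand) held 1 HNF4-type site, which starts 51 bases before the start site. The upstream start of HNF4A had a GC box and no KLF-type box. That of KLF5 had a CDX-type site that shares bases with a TATA box. No match was found before the start of KRT20, and the MUC2 window held 1 KLF-type box and 1 CDX-type site. The starts shown for KLF4, KLF5, HNF4A and MUC13 lie inside the span that GENCODE 44 gives the gene. A match is a description of these letters and does not show that a factor binds.

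Levels can be compared between genes only per length. In RPKM, the reads per kb of merged exon scaled to the total reads of the library, KLF5 was at 10.4 ± 0.704 on day 3 and 25.1 ± 1.33 on day 5 (SD, n = 3 each). It was followed by KLF4, at 2.50 ± 0.163 and 11.7 ± 0.866. CDX2 came next, at 1.78 ± 0.0353 and 2.54 ± 0.140. The libraries of these neighbours did not overlap on either day. HNF4A was at 0.503 ± 0.0186 and 1.17 ± 0.111, and KRT20 at 0.446 ± 0.0591 and 0.295 ± 0.0877. The merged exons of all HNF4A transcripts span 10167 bases, against 1913 for KRT20, and a shorter length would raise the RPKM of HNF4A. The day 3 libraries of HNF4A and KRT20 overlapped, whereas on day 5 all 3 HNF4A values, from 1.10, were above all 3 KRT20 values, up to 0.388. MUC13 was at 0.0970 ± 0.0390 and 0.189 ± 0.0239, and it overlapped KRT20 on day 5 and TFF3 on day 3. The other 4 genes had means from 0.0107 to 0.0573 on both days, and the libraries of genes next to each other in this order overlapped. On day 3, all 3 TFF3 values were above all MUC2 and VIL1 values. For scale, the simple epithelial keratins KRT8, KRT18 and KRT19 were at mean RPKM of 77.0, 88.6 and 97.1 on day 3, far above KRT20.

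**Figure D3:**
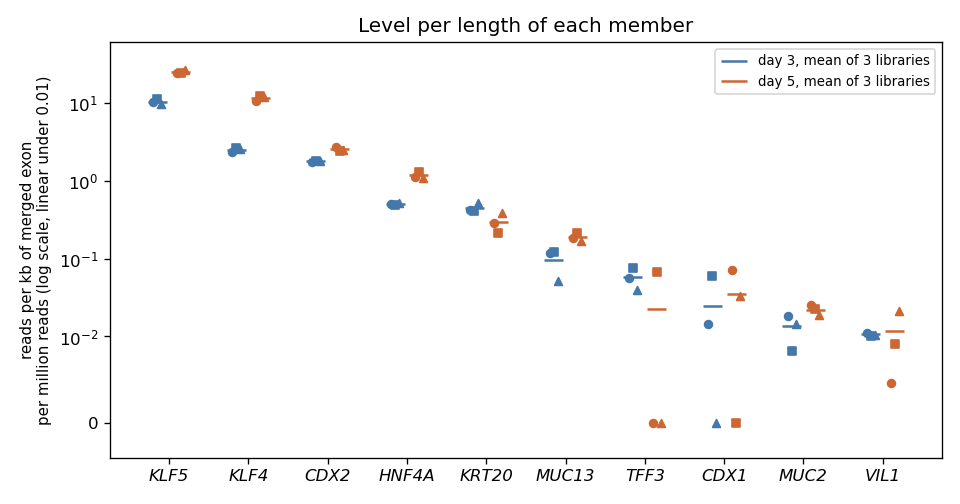
RPKM over merged exons (y axis, log scale that is linear under 0.01) of the 10 genes in each library (day 3 blue, day 5 orange; circle, square and triangle for replicates 1, 2 and 3), with a bar at the mean of each day. The 4 factors KLF5, KLF4, CDX2 and HNF4A lead on day 5, and TFF3, CDX1, MUC2 and VIL1 lie near or below 0.1 on both days.

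KLF4 and KLF5 rose with most of their family. Of the 15 other KLF genes 14 were analysed and 12 tested, and 10 of these 12 were called higher (limma), 83.3% against 29.3% of all genes. Their median log2 fold change was 1.15, against 0.01 for all genes tested. The largest of these rises were those of KLF13 (794 ± 105 to 2809 ± 114, log2 fold change 1.83, adjusted p = 0.000208 from limma), KLF9 and KLF6. KLF9 went from 172 ± 7.63 to 475 ± 50.6 and KLF6 from 2473 ± 317 to 6338 ± 548 (SD, n = 3 each). The log2 fold changes of KLF8 and KLF15 were 0.44 and 0.08 and did not pass (adjusted p = 0.327 and 0.572 from limma). The estimate for KLF4 was above those of all other KLF genes tested, although its interval overlapped that of KLF13.

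**Figure D4:**
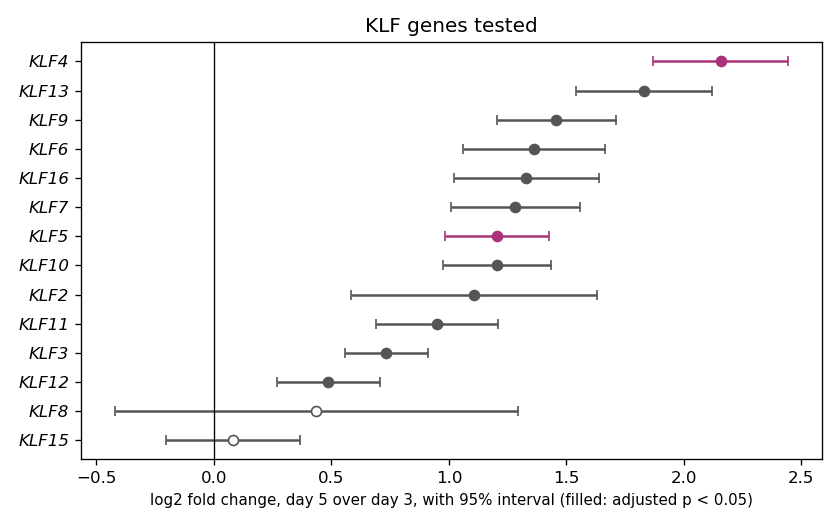
Log2 fold change of day 5 over day 3 with its 95% interval for the 14 KLF genes tested, KLF4 and KLF5 in purple. Filled symbols mark an adjusted p under 0.05. KLF4 is at the top with 2.16, KLF5 in the middle with 1.20, and KLF8 and KLF15 have intervals that include 0.

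Among 25 other transcription factors of the intestinal epithelium, 24 were analysed and 17 tested. Of these, 9 were called higher (52.9%, against 29.3% of all genes) and 8 did not pass, with a median log2 fold change of 0.52. PRDM1, a repressor known from the immature gut, rose from 27.1 ± 4.61 to 259 ± 1.94 (SD, n = 3 each, log2 fold change 3.22, adjusted p = 0.000128 from limma). ELF3, an epithelial ETS factor, rose from 693 ± 55.3 to 3910 ± 180, and SOX9, a factor of crypt progenitors, from 1569 ± 301 to 7348 ± 562. The HNF4A paralog HNF4G was at 235 ± 21.5 and 190 ± 35.2 (log2 fold change -0.32, adjusted p = 0.135 from limma). GATA6, a zinc finger factor of the gut endoderm, was at 116 ± 25.4 and 164 ± 21.9 (adjusted p = 0.0632 from limma). ATOH1, which starts secretory fate, was at means of 0.499 and 0.719 and was not tested. HNF4G, GATA6 and ATOH1 were named after their values were seen.

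Most genes of absorptive enterocytes were too low to test. The 32 genes of this list, like the other lists, were chosen with earlier results of these data known. Of them 28 were analysed and 6 tested, and 4 of the 6 were called higher, where 29.3% of all genes tested were. These were the maltase MGAM (56.8 ± 15.3 to 150 ± 28.2, log2 fold change 1.41, adjusted p = 0.00374 from limma), the peptide transporter SLC15A1 (120 ± 9.91 to 247 ± 31.4), the peptidase DPP4 (162 ± 16.2 to 293 ± 18.2) and the adhesion molecule CEACAM1 (11.7 ± 2.57 to 40.2 ± 10.7). CEACAM1 was at 8.78, 13.6 and 12.8 on day 3, and it would have passed the filter through its day 5 values alone. The alkaline phosphatase ALPI and the fatty acid binding proteins FABP1 and FABP2 had means under 3 on both days. The structural genes of the brush border were better expressed. Of 18 such genes 17 were analysed and 14 tested, with 8 higher (57.1%, against 29.3% of all genes) and 3 lower (21.4%, against 27.6%), and a median log2 fold change of 0.64. The actin bundler ESPN rose from 437 ± 21.1 to 1648 ± 26.3 (log2 fold change 1.91, adjusted p = 0.000108 from limma), and MISP and MYO1D rose as well (log2 fold changes 1.45 and 1.34). PLS1, another actin bundler of microvilli, fell from 3093 ± 77.6 to 1679 ± 124 (log2 fold change -0.88, adjusted p = 0.000479 from limma), and CALML4 fell by 0.46 on the log2 scale. The other gene called lower, the microvillar protocadherin CDHR2, was at 11.4, 13.6 and 11.3 on day 3 and at 7.59, 8.57 and 7.25 on day 5, and it passed the filter through day 3 alone.

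Goblet and mucin genes other than MUC2, MUC13 and TFF3 were also mostly low. Of 24 such genes 22 were analysed and 9 tested, of which 3 were higher, 1 lower and 5 did not pass. The 33.3% called higher was close to the 29.3% of all genes tested, and the 11.1% called lower stood against 27.6%. The membrane mucin MUC1 rose from 63.3 ± 10.6 to 161 ± 27.6 (log2 fold change 1.33, adjusted p = 0.00116 from limma), and GALNT12, which starts mucin-type glycans, from 654 ± 92.2 to 1230 ± 24.5. The other was MUC12, a membrane mucin, from 7.91 ± 1.95 to 59.3 ± 7.44, which passed the filter through day 5 alone. The gene called lower was TFF1, a trefoil peptide like TFF3, from 16.7 ± 4.21 to 8.17 ± 4.09 (adjusted p = 0.0414 from limma), and this call was lost in edgeR, in DESeq2, and without any 1 library except day 5 replicate 2. AGR2, a chaperone of mucin folding, was at means of 2.29 and 6.71.

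Of 18 crypt stem cell genes 17 were analysed and 14 tested, with 7 higher (50%, against 29.3% of all genes) and 2 lower (14.3%, against 27.6%) and a median log2 fold change of 0.34. EPHB3 rose from 107 ± 8.82 to 381 ± 11.7 (log2 fold change 1.82, adjusted p = 0.000152 from limma), and PTK7 and EPHB2 had log2 fold changes of 1.43 and 1.21. CDCA7 and AXIN2 were lower (log2 fold changes -0.45 and -0.40, adjusted p = 0.00743 and 0.0106 from limma). LGR5, the stem cell receptor, was at means of 1.76 and 0.361 and was not tested. ASCL2 (means of 0 and 1.05) and SMOC2 (0.705 and 0) were also too low to test, and OLFM4 was not analysed. Of 17 enteroendocrine, tuft and Paneth genes 4 were tested. DCLK1 and LYZ were higher (50%, against 29.3% of all genes) and TPH1 was lower (25%, against 27.6%). Their log2 fold changes were 1.07, 1.04 and -1.11, and LYZ passed the filter through day 5 alone.

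General epithelial genes mostly rose. Of 12 other keratin and adhesion genes, 10 were called higher (83.3%, against 29.3% of all genes) and 1 lower (8.33%, against 27.6%), with a median log2 fold change of 1.31. E-cadherin (CDH1) rose from 637 ± 57.1 to 3940 ± 133 (SD, n = 3 each, log2 fold change 2.63, adjusted p = 0.0001 from limma), CLDN4 from 1267 ± 230 to 5157 ± 310, and KRT19 from 8215 ± 1675 to 31867 ± 792. The gene called lower was KRT23, on chromosome 17 like KRT20 (521 ± 9.25 to 403 ± 21.9, log2 fold change -0.37, adjusted p = 0.00777 from limma). EPCAM was at 7227 ± 257 and 7236 ± 173, with a 95% interval of the log2 fold change from -0.18 to 0.18 (adjusted p = 0.982 from limma). Of 5 markers of other cell types tested, 2 were called higher (40%, against 29.3% of all genes). These were COL1A1 (521 ± 42.1 to 1129 ± 33.2) and VWF (14.1 ± 5.64 to 32.1 ± 10.8, with overlapping days). The labels name HCT116 cells alone, and the source of these reads was not tested.

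**Figure D5:**
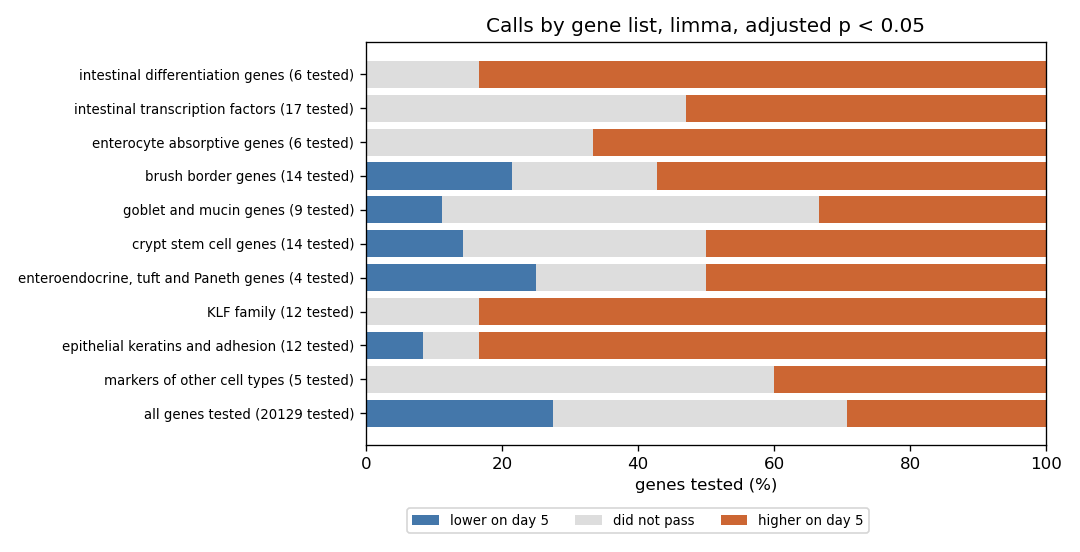
Share of the genes tested (x axis, percent) in each list that was called lower (blue), higher (orange) or did not pass (grey) on day 5, with the number tested beside each name. All genes tested are at the bottom, with 27.6% lower and 29.3% higher, and the intestinal differentiation genes and the KLF family each have 83.3% higher.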

How the data were processed

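Whole transcriptome RNAseq of HCT116 cells was analysed for day 3 and day 5, with 3 libraries per day; small-RNAseq tables hold miRNAs and were not used here. According to the methods, the authors trimmed the reads and mapped them strand-specifically to genes of ENSEMBL v99 on hg38 in CLC Genomics Workbench v23.0.3, with TMM named as normalization, and the submitters' processing notes name FastQC 0.11.8 and MultiQC 1.7. The deposited signal per gene and library is a number of reads divided by a size factor of the library. All values (100%, within 0.001 reads) were whole multiples of 1 read, so reads were recovered. Libraries carried molecular identifiers, and it is not given in the sources used here whether they were collapsed. Further columns of the table hold the authors' own fold changes and p-values, which were not used.

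Genes that reached a value of 10 in 3 or more of the 6 libraries were fitted by limma 3.58.1 (R 4.3.3) on log2(value + 1), day 5 against day 3, with Benjamini-Hochberg adjustment over all 20129 genes and a threshold of 0.05. A fold change on this scale understates changes of low genes. Fits were run on simulated counts in which far fewer genes changed than were called here. That check cannot speak to normalization or error control in these data. For genes below the filter, reads were summed per day and exact 95% intervals of the ratio of their share of all reads were computed (scipy 1.17.1). Levels per length used merged exons of GENCODE 44 (GRCh38, the assembly of the files). Alternatives were edgeR 4.0.16 and DESeq2 1.42.0 on whole reads, library totals, no filter, a pseudocount of 0.1, a 2-fold minimum, a variance trend, a replicate block and leaving out each library. On whole reads, edgeR called 6231 genes higher and 6014 lower, and DESeq2 5844 and 5287. Intervals of read counts cover counting error only. Whole transcriptome values of day 7 were not analysed here.

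The members and lists were chosen with earlier results of these data known. All 10 members were named, and of each other list the top rises and top falls (at most 3 each) that passed the threshold, without overlap between the days and with a mean value of at least 50; for each member tested, the gene most alike over the 6 libraries was taken among those with a mean of at least 100. CEACAM1, CDHR2, MUC12, TFF1, LYZ, VWF and genes given as not passing or not tested were added after their values were seen.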

Additional observations from a re-analysis of the deposited data

How the results depend on the processing

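KLF4, KLF5 and HNF4A kept their direction and stayed past the threshold under all 13 alternatives, with log2 fold changes of 2.06 to 2.23, 1.15 to 1.27 and 1.07 to 1.23. CDX2 ranged from 0.39 to 0.51 and missed the threshold only without the filter. MUC13 ranged from 0.61 to 1.10 and missed it without the filter (adjusted p = 0.0808 from limma), without each day 5 library, and in edgeR and DESeq2 (adjusted p = 0.0534 and 0.15). KRT20 ranged from -0.89 to -0.46 and passed the threshold only without day 5 replicate 3 and with the replicate block. The number of members called higher was 5, and 3 without the filter or with a 2-fold minimum. The former refits limma on more genes, which also changes its variance estimates, and the latter adds a condition. With single libraries left out, the number called higher was 4 to 5 and the number called lower was 0 to 1.

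The labels do not say whether libraries with the same replicate number were paired. Deviations of same-numbered libraries from their day's mean correlated at -0.0112, 0.0343 and 0.0234 over 20129 genes. With the replicate number as a block, 1 member was called lower, KRT20 (adjusted p = 0.0154 from limma), and 5 were called higher. Depth limits CDX1, VIL1, MUC2 and TFF3, for which 2 to 27 reads per day were counted.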

Other observations

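The protein-coding neighbours of the members in GENCODE 44 were looked up beside them. PDX1, which lies 34.6 kb from CDX2 in the ParaHox cluster, was at 0.17 on the log2 fold change scale (adjusted p = 0.531 from limma). TTPAL, 43.0 kb from HNF4A, was at 0.11 (adjusted p = 0.427 from limma), and RAD23B, 153 kb from KLF4, was at -0.06 (adjusted p = 0.594 from limma). PIBF1, 38.5 kb from KLF5, was lower (-0.72 on that scale, adjusted p = 0.000446 from limma), whereas KLF12, 609 kb away on the other side, was higher (0.49). ITGB5, 4.02 kb from MUC13, was higher (log2 fold change 1.36, adjusted p = 0.000297 from limma), as was HEG1, 11.9 kb away on the other side (0.58). On either side of KRT20, KRT12 at 8.67 kb was too low to test and KRT23 at 37.5 kb was lower.

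Over the 6 libraries, the gene whose log2 values followed a member most closely was C2CD2 for KLF4, DOP1B for KLF5, KANSL1 for HNF4A, DCAF15 for CDX2, MAP6D1 for KRT20 and an unnamed gene for MUC13, with Pearson r from 0.989 to 1.00. The libraries fall into the 2 days, so such values mostly show the step between days, and the size of the step differed (log2 fold change 0.83 for C2CD2 against 2.16 for KLF4).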
